A study of Nomascus leucogenys with 9 samples.

Results

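Class II genes of the major histocompatibility complex (MHC) and their regulators were followed across lymphoblastoid lines of the northern white-cheeked gibbon, Nomascus leucogenys. The genes were chosen by human Ensembl identifier: CIITA, RFX5, CD74, HLA-DRA, HLA-DRB1, HLA-DRB5, HLA-DPA1, HLA-DPB1, HLA-DQA1 and HLA-DQB1. Of these 10 identifiers, 4 had a row in the table used here, out of 15356 rows in all. They were CIITA (ENSG00000179583), RFX5 (ENSG00000143390), CD74 (ENSG00000019582) and HLA-DQA1 (ENSG00000196735), and all 4 passed the filter on low values that kept 12590 rows. HLA-DRA (ENSG00000204287), HLA-DRB1 (ENSG00000196126), HLA-DRB5 (ENSG00000198502), HLA-DPA1 (ENSG00000231389), HLA-DPB1 (ENSG00000223865) and HLA-DQB1 (ENSG00000179344) had no row under these identifiers and were not analysed here. The 4 genes described below are therefore both regulators, the chaperone and 1 alpha chain, with no beta chain and no complete class II dimer.

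RNA-seq had been done on 9 cultures, each 1 line from a different animal, named Bobby, Khao, Nancy, Phyllis, Ricky, Vok, Asia, China and Melouprey. All were lymphocytes transformed with Epstein-Barr virus, all form 1 group, and the labels give no treatment, age or genotype. Each line is represented by 1 library, so the spread within a line is unknown, and animal, culture, transformation event and library cannot be told apart. Markers of B lymphocytes or of other cell types were not checked, because no source used here pairs their names with the identifiers of the table. In such bulk samples, fewer cells that express a gene and less RNA per cell cannot be told apart.

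MHC class II molecules are dimers of an alpha and a beta chain that present peptides from endosomes to CD4+ T cells, and B lymphocytes carry them constitutively. Transcription of the chain genes and of CD74 depends on conserved promoter boxes that are bound by the RFX complex, of which RFX5 is a subunit, together with other factors. CIITA, the class II transactivator, does not bind DNA itself but is recruited to that assembly, and its amount is known as the main control of class II expression. CD74 encodes the invariant chain, which occupies the peptide groove of new dimers in the endoplasmic reticulum and directs them to endosomes. In humans, loss of CIITA or of an RFX subunit causes bare lymphocyte syndrome, in which cells lack class II molecules.

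The values deposited by the authors were normalized and on a log scale, which was treated as log2, and the depth of each library is unknown. Levels are also given in parts per 1000000 (ppm) of the summed linear values of a library. These values are not divided by gene length, so each gene is compared between lines and not with the other genes.

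On the deposited scale CIITA varied more among the lines than any other of the 4 genes. Its log2 value was 9.58 in China, 9.48 in Asia, 8.94 in Vok, 8.52 in Melouprey and 8.26 in Ricky. It was 7.72 in Phyllis, 7.52 in Khao, 7.46 in Nancy and 7.16 in Bobby. The lines thus formed a graded series with no wide break, since the largest step between neighbours was 0.54 log2 units, between Phyllis and Ricky. The mean was 8.29 ± 0.90 (SD, n = 9), and China stood 5.35-fold above Bobby. In linear terms CIITA ran from 10.2 to 54.7 ppm. Its SD exceeded that of 97.6% of the 6429 rows with a mean between 10 and 100 ppm, where the median SD was 0.21.

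RFX5 varied far less, but the same lines led. Its log2 value was 11.48 in Asia, 11.32 in China and 11.27 in Vok. It was 10.998 in Nancy, 10.96 in Melouprey, 10.87 in Phyllis, 10.86 in Khao, 10.86 in Ricky and 10.74 in Bobby. Asia, China and Vok were thus set apart from the other lines by the largest step of the series, 0.27 log2 units. The mean was 11.04 ± 0.25 (SD, n = 9) and the full range 1.67-fold, from 121.9 to 204.5 ppm. This SD exceeded that of 67.6% of the 2328 rows at or above 100 ppm, for which the median was 0.20.

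CD74 was higher in Asia and China than in every other line, by a wide step. Its log2 value was 14.88 in China and 14.82 in Asia, against 13.76 in Melouprey, 13.71 in Ricky and 13.65 in Khao. It was 13.55 in Vok, 13.52 in Nancy, 13.31 in Phyllis and 13.25 in Bobby. The step between Melouprey and Asia was 1.06 log2 units, or 2.08-fold, while the 7 lower lines spanned only 0.51 log2 units. Over all lines the mean was 13.83 ± 0.60 (SD, n = 9) and the range 3.11-fold, from 693.6 to 2162 ppm. The SD exceeded that of 96.9% of the rows at or above 100 ppm. No pair of lines held equal CD74 values within 0.0001.

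HLA-DQA1, the alpha chain of the DQ isotype, lay close to the filter of 1 ppm, at 1.15 ± 0.29 ppm (SD, n = 9). Its log2 value was 4.67 in Asia, 4.14 in Vok, 4.12 in Khao and 3.896 in Phyllis. It was 3.89 in Nancy, 3.85 in Bobby, 3.72 in Melouprey, 3.72 in China and 3.68 in Ricky. Asia stood 0.54 log2 units above Vok, the next line, whereas the other 8 lines spanned 0.46 log2 units. China, which led in CIITA and CD74, was next to last here. The mean was 3.97 ± 0.31 (SD, n = 9), and the range of 0.99 log2 units, or 1.99-fold, shrank to 0.46 without Asia. The human genome holds a close copy of this gene, HLA-DQA2, and how reads were assigned between such copies is not given in the sources used here, so the HLA-DQA1 value is uncertain in every line.

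**Figure D1:**
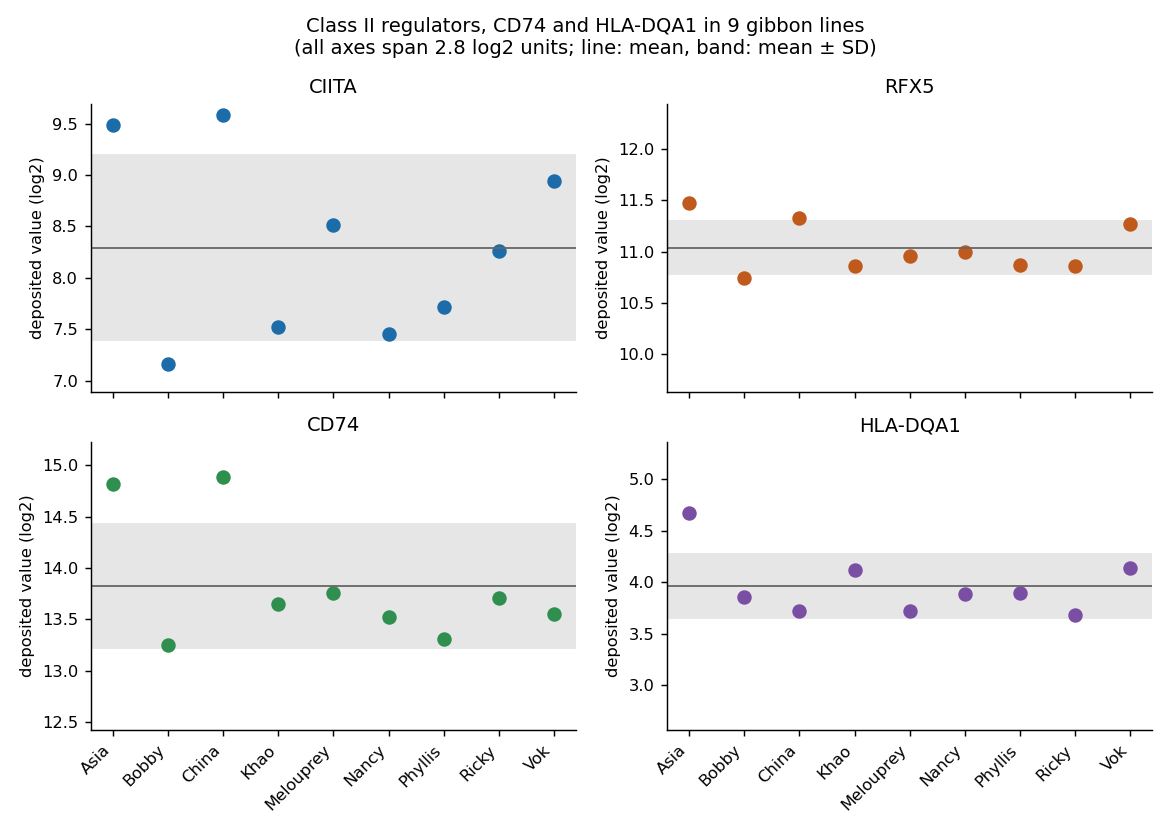
Deposited values, treated as log2, of CIITA, RFX5, CD74 and HLA-DQA1 in each of the 9 lines, with 1 point per library. The mean is a line and the mean ± SD a band, and every vertical axis spans the same width. Asia and China are the highest lines in CIITA, RFX5 and CD74, and Asia alone is the highest in HLA-DQA1.

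Of the 4 genes, CIITA and CD74 spanned at least 2-fold over the lines, against 26.4% of all rows kept. CIITA alone spanned at least 4-fold, against 6.18% of all rows. With a pseudocount of 16 ppm, which compresses low values, the CIITA range was 1.43 log2 units, below the 1.62 of CD74. No gene of the 4 then spanned 4-fold, and the shares of all rows were 8.12% for 2-fold and 0.834% for 4-fold. HLA-DQA1, at 1.99-fold, was just short of the 2-fold mark, and RFX5 spanned 1.67-fold. Without Asia and China, an omission chosen after the data were seen, CIITA alone still spanned 2-fold, at 1.79 log2 units. None of the 4 then spanned 4-fold. The shares of all rows in that setting were 18.9% for 2-fold and 3.21% for 4-fold.

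**Figure D2:**
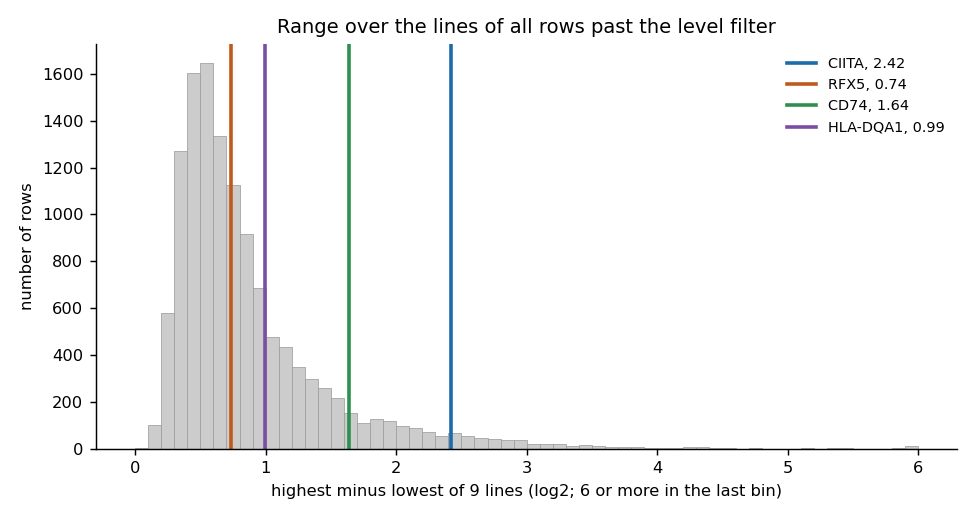
Number of rows (vertical axis) by the difference between the highest and lowest of the 9 lines in log2 units (horizontal axis) for the 12590 rows kept, with coloured lines at the 4 genes. CIITA, at 2.42, and CD74, at 1.64, lie in the upper tail, and RFX5, at 0.74, lies near the bulk of the rows.

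Asia and China were the 2 highest lines in 3 of the 4 genes, CIITA, RFX5 and CD74. The same held for 8.74% of all rows kept. In CD74 both stood at least 2-fold above every other line, which was the case in 15 of the 12590 rows kept, or 0.119%. This pair of lines was picked out after its CD74 values were seen, and the shares describe the table and are no test. Asia, but not China, also stood outside the other lines in the spread of its whole profile. When each row's median was subtracted, the values of all rows kept had an SD of 0.53 log2 units in Asia and 0.39 in China, against 0.22 to 0.42 in the other lines. The part of the Asia profile in the class II values was not tested. The medians of the columns differed by at most 0.012 log2 units from their common mean.

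The next comparison asked whether the other genes followed CIITA from line to line. RFX5 and CD74 were both higher in lines with more CIITA, but neither passed the test over all rows. Every row kept was fitted with limma on the CIITA level of the 9 lines, and p-values were adjusted over the 12589 rows by the Benjamini-Hochberg method. CD74 was higher by 0.57 ± 0.12 log2 units (SE) per log2 unit of CIITA, with a 95% interval of 0.30 to 0.84 and a limma adjusted p of 0.132. RFX5 was higher by 0.25 ± 0.055 log2 units per log2 unit of CIITA, with an interval of 0.13 to 0.38 and a limma adjusted p of 0.132. HLA-DQA1 gave a slope of 0.11 ± 0.11, with an interval of -0.14 to 0.36 and a limma adjusted p of 0.752. None of the 3 genes was called, and neither was any of the 12589 rows (0%). Unadjusted, 1515 rows had a p under 0.05 in limma. The exact permutation test on Pearson's r also called 0 rows against CIITA, with 1534 rows at an unadjusted p under 0.05. With a pseudocount of 16 ppm the slopes were 0.97 for CD74 (limma adjusted p 0.095) and 0.39 for RFX5 (limma adjusted p 0.10). In that setting 6 of the 12589 rows were called.

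For RFX5, Pearson's r with CIITA was 0.89 over the 9 lines (exact two-sided permutation p = 0.0014, adjusted over all rows 0.218). Spearman's rho was 0.77 (exact permutation p = 0.021, adjusted over all rows 0.454). Asia and China were the lines farthest from the CIITA median. Without them r was 0.75 (exact permutation p = 0.037, n = 7) and rho 0.54 (exact permutation p = 0.236, n = 7), and the limma slope was 0.20, with an interval from just below 0 to 0.39. In the 7 lines the RFX5 values thus tended to rise with CIITA, with less certainty and in a looser order. Vok was the highest of the 7 in both genes. In RFX5 it lay with Asia and China above the largest step in that gene, so r over the 7 lines includes that step. The relation among the lines below the step was not computed. Nancy ranked 8th of the 9 lines in CIITA but 4th in RFX5, and Ricky 5th in CIITA but 8th in RFX5.

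For CD74, Pearson's r with CIITA was 0.85 over the 9 lines (exact permutation p = 0.0024, adjusted over all rows 0.237). Spearman's rho was 0.83 (exact permutation p = 0.0083, adjusted over all rows 0.416). The lines fell into the separate levels described above, so r over all 9 includes that split. Among the 7 lower lines r with CIITA was 0.57 (exact permutation p = 0.187, n = 7) and rho was 0.64 (exact permutation p = 0.139, n = 7). The limma slope in these lines was 0.17 ± 0.11, with an interval of -0.075 to 0.42 and a limma adjusted p of 0.442. The slope over 9 lines therefore rests largely on Asia and China together. With either one left out alone it stayed at 0.49 (without Asia) or 0.47 (without China).

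Vok was the line in which CD74 departed most from CIITA. It had the third highest CIITA and RFX5 values, yet its CD74 ranked sixth. The log2 difference of CD74 minus CIITA was 4.61 in Vok and lay between 5.24 and 6.13 in the other lines. Without Vok the slope of CD74 on CIITA was 0.65 ± 0.084, with a limma adjusted p of 0.058. Vok was picked out after its CD74 value was seen, so the steeper slope without it is no separate test.

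**Figure D3:**
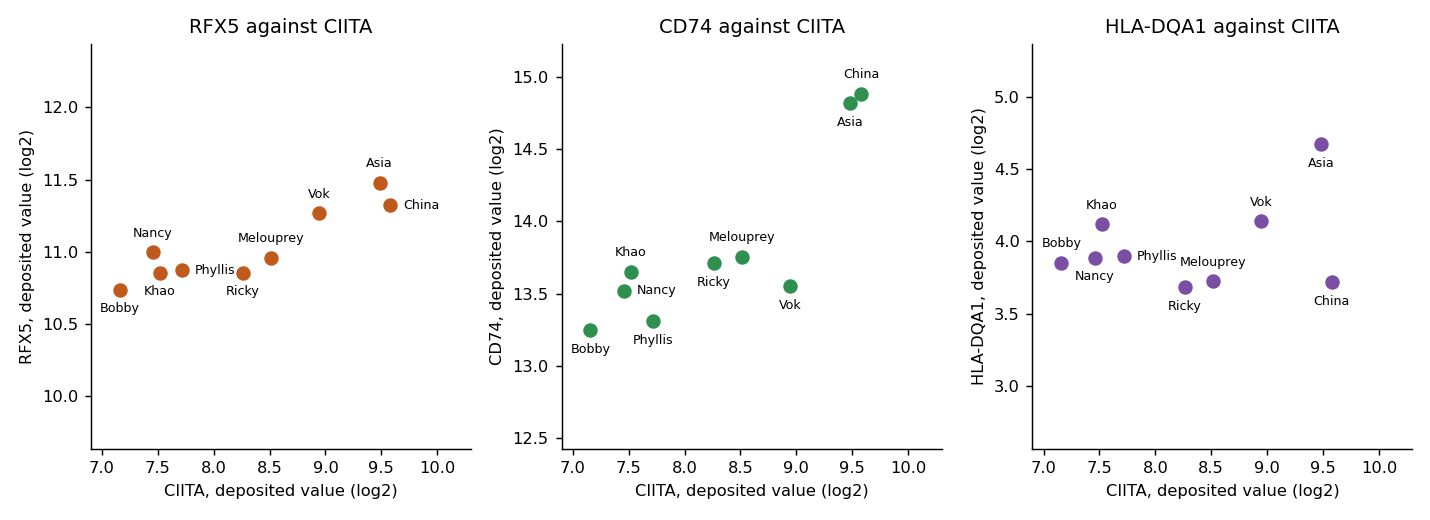
Deposited values, treated as log2, of RFX5, CD74 and HLA-DQA1 (vertical axes) against that of CIITA (horizontal axes). Each line is 1 labelled point, and the vertical axes have equal width. RFX5 is highest in Asia, China and Vok, which are also the highest lines in CIITA. CD74 is set apart in Asia and China by a wide step, with Vok low for its CIITA level. HLA-DQA1 shows Asia and China far apart at similar CIITA levels.

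Setting the lines on RFX5 in place of CIITA gave the only call among the 4 genes. CIITA was higher by 3.16 ± 0.53 log2 units per log2 unit of RFX5, with a 95% interval of 1.98 to 4.34 and a limma adjusted p of 0.027. In the same fit CD74 had a slope of 1.94 ± 0.46 (interval 0.91 to 2.97), with a limma adjusted p of 0.070. HLA-DQA1 had a slope of 0.72 ± 0.35 (interval -0.061 to 1.49), with a limma adjusted p of 0.316. The fit called 1 of the 3 genes, and 211 of 12589 rows in all (1.68%), 105 with a positive and 106 with a negative slope. The exact permutation test against RFX5 called only 3 of the 12589 rows on Pearson's r and 0 on Spearman's rho. The relation of CIITA and RFX5 is the same one that was not called with CIITA as the covariate. Its exact permutation p, adjusted over the rows tested against RFX5, was 0.092 for r and 0.307 for rho. The call was also lost without Asia (adjusted p 0.099), Bobby (0.080), China (0.059), Khao (0.057) or Phyllis (0.064) in limma, although the slope lay between 2.87 and 3.47 whichever single line was left out. With the first principal component of the other rows as a covariate the slope was 4.11 and the limma adjusted p 0.066. The slope of CD74 on RFX5 was then 1.34, with an interval of -0.23 to 2.91 and a limma adjusted p of 0.295. Without Asia and China together the slope of CIITA on RFX5 was 2.89, with a limma adjusted p of 0.205. That of CD74 on RFX5 was 0.33 in this setting, with a limma adjusted p of 0.729. Without Vok the slope of CD74 on RFX5 was 2.34 and passed the threshold, with a limma adjusted p of 0.017. That fit called 396 of 12586 rows, and Vok was picked out for its low CD74, so this call is no separate test. Over all lines r of CD74 with RFX5 was 0.82 (exact permutation p = 0.010, adjusted over all rows 0.155, n = 9). Across the 7 lower lines it was 0.29 (exact permutation p = 0.554, n = 7).

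The relations of HLA-DQA1 with the other genes were not called, and their size depended on single lines. Against CIITA, r was 0.31 (exact permutation p = 0.441, n = 9) and rho 0.050 (exact permutation p = 0.912, n = 9). Against RFX5, r was 0.58 (exact permutation p = 0.087, n = 9) and rho 0.40 (exact permutation p = 0.291, n = 9). Against CD74, r was 0.36 (exact permutation p = 0.357, n = 9) and rho -0.17 (exact permutation p = 0.678, n = 9). Each of these values of r includes Asia, the line that stood apart in HLA-DQA1. With Asia and Vok left out, the lines farthest from the HLA-DQA1 median, r was -0.64 with CIITA (exact permutation p = 0.124, n = 7). It was then -0.37 with RFX5 (exact permutation p = 0.389, n = 7) and -0.41 with CD74 (exact permutation p = 0.312, n = 7). With any single line left out, r with RFX5 remained positive. It was 0.47 without Asia and China (exact permutation p = 0.285, n = 7) and 0.82 without China (exact permutation p = 0.020, adjusted over all rows 0.240, n = 8). Without China the slope of HLA-DQA1 on RFX5 was 1.06, with a 95% interval of 0.39 to 1.73 and a limma adjusted p of 0.122, and without Asia it was 0.072. In the limma fit on HLA-DQA1, 4 of 12589 rows were called (0.0318%), and none of the other 3 genes was. Their limma adjusted p-values were 0.775 for CIITA, 0.544 for RFX5 and 0.733 for CD74, with intervals that all included 0.

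**Figure D4:**
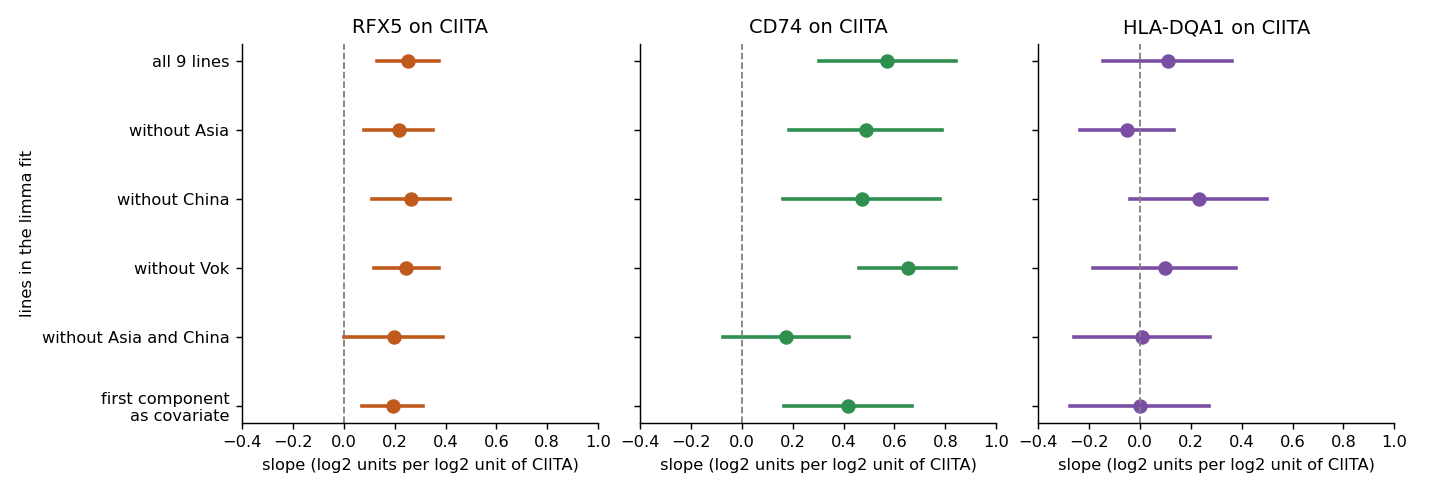
Slopes on CIITA of RFX5, CD74 and HLA-DQA1 (points, log2 units per log2 unit of CIITA, horizontal axes) with 95% limma intervals (bars), for all 9 lines, with lines left out, and with the first principal component of the other rows as a covariate. The CD74 slope is 0.57 with all lines and 0.17 without Asia and China, and that of RFX5 is 0.25 and 0.20.

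The rows with the highest and the lowest Pearson r with CIITA over the lines are given by identifier, because no source used here names them. ENSG00000073584 had the highest r with CIITA, 0.97, and ran from 9.55 in Bobby to 9.92 in China with a median of 9.69. ENSG00000231563 followed with r = 0.96, from 4.22 in Khao to 4.67 in China, with a median of 4.38. Both rows thus covered a narrow range beside that of CIITA. The most negative r was that of ENSG00000102172, -0.95, with 11.72 in Asia, a median of 12.32 and 12.40 in Nancy. It was followed by ENSG00000166228, with r = -0.95, 5.47 in China, a median of 6.07 and 6.69 in Phyllis. Without Asia and China the 4 values of r were 0.93, 0.90, -0.90 and -0.86. The rows were picked by r over all lines, these included, so the values are no separate test. None of these rows was called, with limma adjusted p-values from 0.088 to 0.193. RFX5 ranked 38th from the top among the 12589 rows by r with CIITA.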

How the data were processed

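RNA-seq values of 9 lymphoblastoid lines were used, 1 library per line and 1 group. The table deposited by the authors holds normalized expression values on a log scale, treated as log2 (0.71 to 18.66, with no 0 and no whole number). The log's base, the normalization, the build, the annotation and strandedness are not stated in these sources. Slopes and correlations do not depend on the base, but folds and ppm do. Trimmomatic, STAR, edgeR and DESeq2 are named in the submitters' processing notes, with no version or role. Linear totals at base 2 lay between 13728358 and 14059842, so the columns were already scaled to one another. No coordinates are printed, since the build is unknown. Depth is unknown, and no counting interval is given. Shrinkage of low rows, if any was applied, would narrow HLA-DQA1 most.

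A space in place of a tab in the header was resolved by splitting at white space, and columns were matched by name. The number of unused per-sample columns was 0. The planned lists of cofactors, class I genes and cell type markers could not be read, because 0 of 33914 RefSeq genes (Asia_NLE_v1) carry an Ensembl identifier. For the same reason the rule for named genes gave all members with a row, plus the 2 rows with the highest and the 2 with the lowest r with CIITA.

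The filter kept rows whose mean reached 1 ppm. limma 3.58.1 (R 4.3.3) fitted each row on the centred level of CIITA, RFX5 or HLA-DQA1, with a trended, robust prior and a threshold of 0.05 on the adjusted p. HLA-DQA1 took the place of the planned HLA-DRA. Differences between alpha and beta chains were not computed, since no isotype had both. Exact permutation p-values used all 362880 pairings of 9 lines, are two-sided on the absolute r or rho, and were computed with numpy 2.4.6. Adjustment was over all rows tested against the same gene, for 9 relations read in 3 fits, which cover 6 pairs of genes. The scripts were tested on simulated data. The members and lists were chosen with earlier results of these data known. Alternatives tried were another scaling, a pseudocount, other filters, another prior, a principal component as covariate, and leaving out lines.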

Additional observations from a re-analysis of the deposited data

Results flagged for a closer look

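A line far from the others was looked for in the 4 genes and in 3 differences between genes, 7 sets in all, and 1 set held one. Chance flags about 1 in 20 groups. It was HLA-DQA1, at 4.67 log2 units in Asia against 4.14 in Vok, the next line. Asia was also the line with the widest deviations over all rows, with an SD of 0.53 log2 units, and its part in the HLA-DQA1 value was not tested.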

How the results depend on the processing

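The slopes of RFX5 and CD74 on CIITA and of CIITA and CD74 on RFX5 were positive under every alternative run. That of CIITA on RFX5 lay between 2.87 and 3.47 with 1 line left out, was 4.11 with the first principal component as covariate (limma adjusted p 0.066) and 2.89 without Asia and China, and was called in neither of these settings. That of CD74 on RFX5 lay between 1.56 and 2.34 with 1 line left out, and was 0.33 without Asia and China. With 1 line left out, the slopes on CIITA lay between 0.47 and 0.65 for CD74 and between 0.22 and 0.28 for RFX5. With a pseudocount of 16 ppm the slope was 0.97 for CD74 on CIITA, 0.39 for RFX5 on CIITA and 2.09 for CIITA on RFX5, each on the same side of the threshold as before. Rows called against CIITA numbered 6 with that pseudocount, 11 with a prior without trend, and 0 to 17 with 1 line left out (17 without Melouprey, 7 without Vok, 4 without Ricky, 2 without Nancy). Rows called against RFX5 numbered 28 with the principal component, 0 without Asia and China, and 3 to 396 with 1 line left out (4 without Asia, 3 without Bobby, 98 without China, 77 without Khao, 123 without Melouprey, 325 without Nancy, 49 without Phyllis, 48 without Ricky, 396 without Vok). Rows called against HLA-DQA1 numbered 10 with the pseudocount, 1 with columns shifted to a common median, a filter of 10 ppm or a prior without trend, 0 with the principal component or without Asia and China, and 0 to 8 with 1 line left out (0 without Asia, China, Melouprey or Ricky). The slope of HLA-DQA1 on CIITA turned to -0.0013 with the principal component and lay between -0.050 and 0.23 with 1 line left out, the negative value being without Asia. On HLA-DQA1, the slope of CD74 was -0.27 with the principal component, -0.18 without Asia and China, and -1.16 to 1.17 with 1 line left out. That of CIITA was -0.011 with the principal component and -1.13 to 1.50 with 1 line left out. With 1 line left out, r of HLA-DQA1 lay between -0.24 and 0.59 with CIITA and between -0.40 and 0.77 with CD74, negative without Asia. With RFX5 it lay between 0.085 and 0.82 and was never negative, and the slope of HLA-DQA1 on RFX5 lay between 0.072 and 1.06. With the pseudocount, 0 genes of the 4 spanned 4-fold (0.834% of all rows), since it compresses low values by construction. Without Asia and China 1 spanned 2-fold (18.9% of all rows) and 0 spanned 4-fold (3.21% of all rows). The other causes were not tested. No paired analysis was possible because the lines form 1 group. Omitting Asia and China together was chosen after seeing the data. Unknown depth limits HLA-DQA1 most.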
